A study of Mus musculus with 12 samples.

Results

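Messenger RNA levels of the CC chemokines Ccl2, Ccl3, Ccl4, Ccl5, Ccl7, Ccl8 and Ccl12 and of the CC chemokine receptors Ccr1 and Ccr2 were followed in mouse brain. These 9 genes were taken by symbol from the count table, which held 21951 genes with usable names. RNA sequencing was done on brains of wild type C57BL/6 mice, 6 weeks old, in 3 groups of 4 libraries. The groups were normal mice (control), mice with experimental cerebral malaria (ECM), a severe brain syndrome of malaria infection, and ECM mice given the antimalarial drug artesunate over 4 days (treated ECM). The labels name neither the parasite nor the dose, and do not say whether each library came from a different animal, so the p-values measure only the spread between these libraries, which may be technical.

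CC chemokines are small secreted proteins with a pair of adjacent cysteines that attract leukocytes through receptors coupled to inhibitory G proteins. Ccl2, Ccl7 and Ccl12 act on Ccr2, the receptor that draws inflammatory monocytes out of the bone marrow and into tissue. Ccl3 and Ccl5 act on Ccr1, Ccl4 attracts monocytes and T cells, and mouse Ccl8 is best known as a ligand of Ccr8. In the inflamed brain they can be made by endothelium, astrocytes and microglia as well as by leukocytes that have entered the vessels or the tissue.

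Library totals lay between 13342177 and 18886822 counts. Mitochondrial genes took 10.7% of the counts in control 4, 15.2% in ECM 2 and 13.2% in ECM 3, against 4.74% to 7.89% in the other libraries, and member calls that differed without these 3 libraries are given beside the results. Levels are in CPM, the read count scaled to a common library size after TMM adjustment. A library with 0 counts of a gene in the control group allows a level of up to 0.167 to 0.229 CPM (3 counts, counting error only). A gene was called changed at an adjusted p below 0.05 in edgeR's quasi-likelihood test over 14599 genes. In bulk brain tissue, fewer cells of a type and less RNA per cell cannot be told apart.

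The members lie in 3 clusters of the mm10 genome, with coordinates from GENCODE M21. Ccl2 (chr11:82035571-82037453), Ccl7 (chr11:82045712-82047525), Ccl12 (chr11:82101845-82103400) and Ccl8 (chr11:82115185-82116799) are on the plus strand within 81.2 kb, with Ccl11 between them. Ccl5 (chr11:83525778-83530518) and Ccl3 (chr11:83647844-83649355) on the minus strand and Ccl4 (chr11:83662584-83664683) on the plus strand span 139 kb, with Ccl9 and Ccl6 between them. Ccr1 (chr9:123962124-123968692, minus strand) and Ccr2 (chr9:124101950-124113557, plus strand) span 151 kb.

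Promoter sequences from RefSeq (build GRCm38.p6, 250 bases before to 50 after the start of the gene) were matched by symbol for 5 of the 9 members, Ccl3, Ccl8, Ccl12, Ccr1 and Ccr2, and not for Ccl2, Ccl4, Ccl5 or Ccl7. A set of 4 is shown, the 3 that held a searched motif and, beside them, Ccl3, which held none. The promoters are those of Ccl12 (chr11:82101595-82101894, plus strand), Ccl8 (chr11:82114935-82115234, plus strand), Ccl3 (chr11:83649329-83649628, minus strand) and Ccr1 (chr9:123968643-123968942, minus strand), each written 5′ to 3′. Capitals mark TATAAA, the TATA box letters, in Ccl12 and Ccl8, and a match to the kappa-B consensus in Ccr1.
Ccl12: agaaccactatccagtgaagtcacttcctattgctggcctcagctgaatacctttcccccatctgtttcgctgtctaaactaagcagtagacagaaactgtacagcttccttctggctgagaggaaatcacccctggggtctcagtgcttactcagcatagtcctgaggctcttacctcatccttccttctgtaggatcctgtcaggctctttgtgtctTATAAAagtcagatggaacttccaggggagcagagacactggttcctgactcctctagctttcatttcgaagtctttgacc
Ccl8: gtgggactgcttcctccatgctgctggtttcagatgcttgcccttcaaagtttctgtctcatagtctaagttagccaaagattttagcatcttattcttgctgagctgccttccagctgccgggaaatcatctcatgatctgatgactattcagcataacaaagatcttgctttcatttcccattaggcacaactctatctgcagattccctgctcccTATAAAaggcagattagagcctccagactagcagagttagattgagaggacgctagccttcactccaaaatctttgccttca
Ccl3: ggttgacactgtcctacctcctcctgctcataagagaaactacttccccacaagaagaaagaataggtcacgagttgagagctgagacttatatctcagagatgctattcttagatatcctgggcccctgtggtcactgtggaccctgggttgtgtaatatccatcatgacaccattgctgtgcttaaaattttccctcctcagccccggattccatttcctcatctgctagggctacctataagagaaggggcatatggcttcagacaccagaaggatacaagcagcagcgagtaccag
Ccr1: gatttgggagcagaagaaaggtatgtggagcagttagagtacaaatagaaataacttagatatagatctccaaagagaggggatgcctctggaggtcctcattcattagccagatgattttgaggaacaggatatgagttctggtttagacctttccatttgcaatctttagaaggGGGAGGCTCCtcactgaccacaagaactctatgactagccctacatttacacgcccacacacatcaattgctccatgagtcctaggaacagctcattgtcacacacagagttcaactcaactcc

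TATAAA was found from -31 to -26 of the start in Ccl12 and from -32 to -27 in Ccl8, the neighbours of the first cluster. The same letters occurred in 13.6% of 32851 promoters of this length. The kappa-B match of Ccr1 lay from -74 to -65, and 8.46% of promoters held one. The other motifs searched were the interferon-stimulated response element, GAAA followed 2 bases on by a second GAAA (3.44% of promoters), the gamma-activated site TTCNNNGAA (8.3%) and the AP-1 site TGANTCA (7.81%). All were searched on both strands, and none of the 5 motifs was found in these windows of Ccl3 and Ccr2. TATAAA was searched as exact letters, so TATAAG, which the Ccl3 window holds, was not counted. A match is a description of the letters and not evidence of binding.

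Across the members, the first comparison asked which were higher in ECM brain. In ECM against control, 9 of 9 members rose, beside 7.0% of all genes tested that were called higher (3.27% were called lower and 10.3% in either direction). Their median log2 fold change was 5.07 and the range 3.60 (Ccr2) to 8.11 (Ccl5), while the median over all genes tested was -0.02. Control and ECM libraries did not overlap for 8 of the 9, the exception being Ccl8, and 8.54% of all genes tested were likewise higher in every ECM library than in every control.

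The second comparison asked what differed between ECM mice with and without artesunate. In treated ECM against ECM, 6 of 9 members fell, beside 5.05% of all genes called lower (3.3% higher, 8.35% in either direction), and Ccl4, Ccl8 and Ccl12 were not called. The median log2 fold change of the members was -1.94 and the range -3.20 (Ccl2) to -0.83 (Ccl12), against a median of 0.01 over all genes. All treated libraries lay below all ECM libraries for 6 of the 9 (Ccl2, Ccl3, Ccl4, Ccl7, Ccr1 and Ccr2), beside 10.5% of all genes. With treated ECM 1 or treated ECM 2 left out, 3 of the 9 were called, while the genes called in either direction over the whole table went from 1219 to 600 and 550.

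Treated mice were then set against normal mice. In treated ECM against control, 6 of 9 members were higher, beside 1.99% of all genes called higher (0.0548% lower, 2.04% in either direction), and Ccl3, Ccl8 and Ccr1 were not called. The median log2 fold change was 3.70 and the range 1.66 (Ccr2) to 6.23 (Ccl5), against a median of 0.00 over all genes. All treated libraries lay above all controls for 8 of the 9, the exception being Ccl3, beside 10.8% of all genes. Ccl2, Ccl3, Ccl7 and Ccl8 passed the filter on low counts for this comparison only with the ECM libraries in the fit. With treated ECM and control alone in the fit, 4 of the 9 members were called. These 3 comparisons share their libraries in pairs, so the values of a member in them are not independent.

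**Figure D1:**
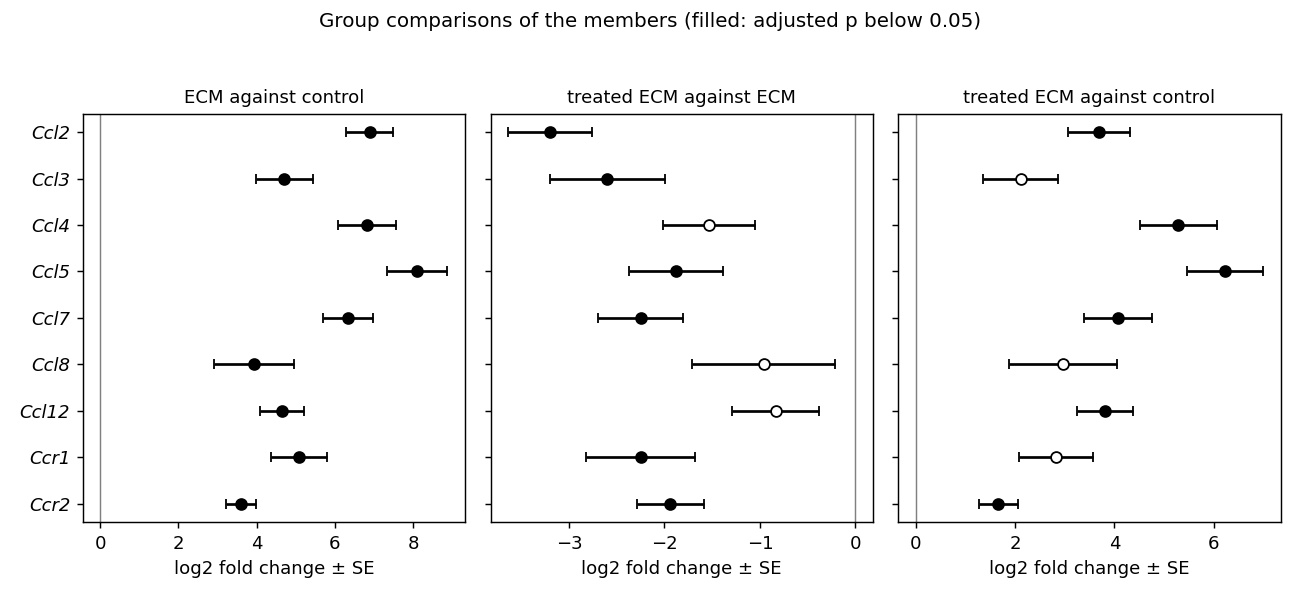
The log2 fold change (x axis, ± SE from the edgeR fit) is drawn for each of the 9 members (y axis) in 3 panels: ECM set against control, then treated ECM set against ECM, then treated ECM set against control. Filled points passed an adjusted p below 0.05, which 9, 6 and 6 members did in these panels, and the values of Ccl4, Ccl7 and Ccl8 against control rest on 3 control counts each.

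Ccl2, the main ligand of Ccr2, was at 0.0557, 0.262, 0 and 0.0714 CPM in controls 1 to 4. It reached 10.2, 18.9, 8.62 and 13.3 CPM in ECM 1 to 4, and 0.608, 1.26, 1.52 and 2.18 CPM in treated ECM 1 to 4. Every ECM library stood above every treated library, and every treated library above every control. Ccl2 rose 119-fold in ECM (log2 6.89 ± 0.60 SE, adjusted p = 5.78e-06) and was 9.18-fold lower in treated ECM than in ECM (log2 -3.20 ± 0.44, adjusted p = 0.00134), the largest fall among the members. In treated ECM it remained 13-fold above control (log2 3.70 ± 0.63, adjusted p = 0.00503). All 3 calls held in each of the 12 fits that left out 1 library. With only treated ECM and control in the fit, Ccl2 did not pass the filter on low counts and was not tested. The controls held only 6 counts, 4 of them in control 2, without which the log2 fold changes against control were 7.92 in ECM and 4.73 in treated ECM. By counts alone, ECM was 129 times control (95% exact interval 59.0 to 353).

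Ccl7, a second ligand of Ccr2, was at 0.0557, 0.0654, 0.0763 and 0 CPM in the controls. It reached 2.75, 6.31, 4.73 and 4.81 CPM in ECM 1 to 4 and 0.884, 0.279, 1.06 and 1.65 CPM in treated ECM 1 to 4. As with Ccl2, the 3 groups did not overlap. The controls held 3 counts in all and the ECM libraries 260, a ratio per library size of 93.7 (95% exact interval 31.7 to 457, counting error only), and the call had an adjusted p of 2.09e-05. Ccl7 was 4.75-fold lower in treated ECM than in ECM (log2 -2.25 ± 0.44, adjusted p = 0.00884). Treated libraries held 61 counts, 19.6 times control (6.40 to 97.7, counting error only), and the call had an adjusted p of 0.00469. With only treated ECM and control in the fit, Ccl7 did not pass the filter on low counts and was not tested.

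Ccl12, a mouse ligand of Ccr2 encoded next to Ccl8, had the highest control level per length of the members (0.799 ± 0.304 FPKM in the authors' deposited table, SD, n = 4). Its CPM in the controls were 0.668, 0.327, 0.305 and 0.50 CPM. It rose to 8.64, 11.6, 15.4 and 10.8 CPM in ECM 1 to 4, a 25.0-fold difference (log2 4.64 ± 0.57, adjusted p = 1.01e-04). Treated ECM 1 and 2 held 2.10 and 3.14 CPM, and treated ECM 3 and 4 held 12.8 and 8.01 CPM. Treated ECM 1, 2 and 4 lay below all ECM libraries and treated ECM 3 above 3 of the 4. Ccl12 was not called between treated ECM and ECM (log2 -0.83 ± 0.45, adjusted p = 0.262), and was 14.0-fold above control in treated ECM (log2 3.81 ± 0.56, adjusted p = 0.00161).

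Ccl8 had the lowest level per length of the ligands in ECM (the authors' deposited FPKM). It was at 0.167 CPM (3 counts) in control 1 and at 0 in the other controls, at 1.02, 1.29, 0 and 1.07 CPM in ECM 1 to 4, and at 0.331, 0.699, 0.265 and 0.463 CPM in treated ECM 1 to 4. ECM 3, with 0 counts, lay at the level of the controls, and 0 counts there allow up to 0.249 CPM. The ECM libraries held 49 counts, 17.7 times control (95% exact interval 5.70 to 88.5, counting error only). The adjusted p of 0.0254 lay above 0.05 without control 2, 3 or 4 or ECM 1, 2 or 4 (up to 0.0753). Ccl8 was not called in treated ECM against ECM (log2 -0.96 ± 0.75, adjusted p = 0.432). Neither was it called against control (adjusted p = 0.318), although all 4 treated libraries lay above all 4 controls. The treated libraries held 27 counts, a ratio of 8.68 (interval 2.67 to 44.7, counting error only, which leaves out the spread between libraries).

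Ccl3, a ligand of Ccr1 made by activated myeloid cells, was at 0, 0.0654, 0.229 and 0.50 CPM in the controls. It was at 2.36, 7.12, 7.63 and 3.42 CPM in ECM 1 to 4 and at 0.552, 0.489, 0.729 and 1.59 CPM in treated ECM 1 to 4. All ECM libraries were above all treated libraries, whereas treated ECM 2 lay below control 4. Ccl3 rose 26.2-fold in ECM (log2 4.71 ± 0.72, adjusted p = 0.000674) and was 6.06-fold lower in treated ECM than in ECM (log2 -2.60 ± 0.60, adjusted p = 0.0198). Without control 4 the rise was log2 5.74. The second call was lost without treated ECM 1, 2 or 3 (adjusted p up to 0.0730). Treated ECM was not called against control (log2 2.11 ± 0.76, adjusted p = 0.308).

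Ccl4, encoded beside Ccl3, was at 0.111, 0, 0.0763 and 0 CPM in the controls. It reached 3.93, 9.86, 4.73 and 7.54 CPM in ECM 1 to 4 and 1.10, 0.978, 3.38 and 3.57 CPM in treated ECM 1 to 4. The 3 groups did not overlap, and ECM 1 and treated ECM 4 stood close together. Counts were 3 in the controls and 370 in ECM, a ratio of 133 (95% exact interval 45.3 to 649, counting error only). The call had an adjusted p of 4.00e-05. In treated ECM there were 139 counts, 44.7 times control (15.0 to 219, counting error only), with an adjusted p of 0.00150. Without control 1 the fitted log2 fold change of ECM against control went from 6.82 to 7.66. The fall from ECM to treated ECM was not called in the edgeR fit (log2 -1.53 ± 0.48, adjusted p = 0.0663). It passed with DESeq2 (adjusted p = 0.0177) and without control 4 (adjusted p = 0.0457), and the authors' deposited table lists a log2 fold change of -1.55 with an adjusted p of 0.0121. It did not pass in the other 11 fits that left out 1 library (adjusted p up to 0.175). Nor did it pass with a replicate block (adjusted p = 0.121) or with only the ECM and treated ECM groups in the fit (adjusted p = 0.0759).

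Ccl5, a chemokine of activated T cells and NK cells that binds Ccr1, changed most of the members in ECM. It was at 0.167, 0.0654, 0.0763 and 0 CPM in the controls, at 21.7, 46.0, 8.13 and 24.3 CPM in ECM 1 to 4, and at 4.97, 3.70, 5.56 and 12.9 CPM in treated ECM 1 to 4. ECM 3 lay below treated ECM 4, so that these groups overlapped, and both stood apart from control. Ccl5 rose 277-fold in ECM (log2 8.11 ± 0.77, adjusted p = 1.22e-05) and was 75.0-fold above control in treated ECM (log2 6.23 ± 0.77, adjusted p = 0.000364). It was 3.69-fold lower in treated ECM than in ECM (log2 -1.88 ± 0.49, adjusted p = 0.0337). The controls held 5 counts, 3 of them in control 1, without which the log2 fold changes against control were 8.81 and 6.93, and by counts alone ECM was 302 times control (95% exact interval 129 to 931). The fall lost its call without control 3, ECM 1, ECM 2 or treated ECM 1, 2 or 3 (adjusted p up to 0.104), and with only the ECM and treated ECM groups in the fit (adjusted p = 0.0516).

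Of the receptors, Ccr2 of inflammatory monocytes was at 0.445, 0.785, 0.458 and 0.571 CPM in the controls. It was at 5.50, 12.4, 5.80 and 4.17 CPM in ECM 1 to 4 and at 1.38, 1.68, 2.32 and 1.85 CPM in treated ECM 1 to 4. The 3 groups did not overlap, and the treated libraries lay close together. Ccr2 rose 12.1-fold in ECM (log2 3.60 ± 0.39, adjusted p = 3.96e-05) and was 3.84-fold lower in treated ECM than in ECM (log2 -1.94 ± 0.35, adjusted p = 0.00557). It was 3.16-fold above control in treated ECM (log2 1.66 ± 0.39, adjusted p = 0.0478). That last call was lost in 10 of 12 fits that left out 1 library, all but those without ECM 2 or ECM 4 (adjusted p up to 0.166), and also with RLE scaling (0.0520) and with no filter on low counts (0.0514). For this comparison the authors' deposited table lists a log2 fold change of 1.67 with an adjusted p of 0.00262.

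Ccr1, a receptor of monocytes and neutrophils for Ccl3 and Ccl5, was at 0.390, 0, 0.229 and 0 CPM in the controls. It was at 2.75, 9.70, 5.64 and 4.86 CPM in ECM 1 to 4 and at 0.718, 1.12, 2.05 and 0.927 CPM in treated ECM 1 to 4. The groups did not overlap. Ccr1 rose 33.6-fold in ECM (log2 5.07 ± 0.72, adjusted p = 0.000325) and was 4.76-fold lower in treated ECM than in ECM (log2 -2.25 ± 0.57, adjusted p = 0.0296). Without control 1 the rise was log2 6.16. The fall was lost without ECM 2 or treated ECM 1, 2 or 4 (adjusted p up to 0.0945) and without control 4, ECM 2 and ECM 3 together (adjusted p = 0.0551). Treated ECM was not called against control (log2 2.82 ± 0.74, adjusted p = 0.0868), though it was with DESeq2 (adjusted p = 0.00189).

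**Figure D2:**
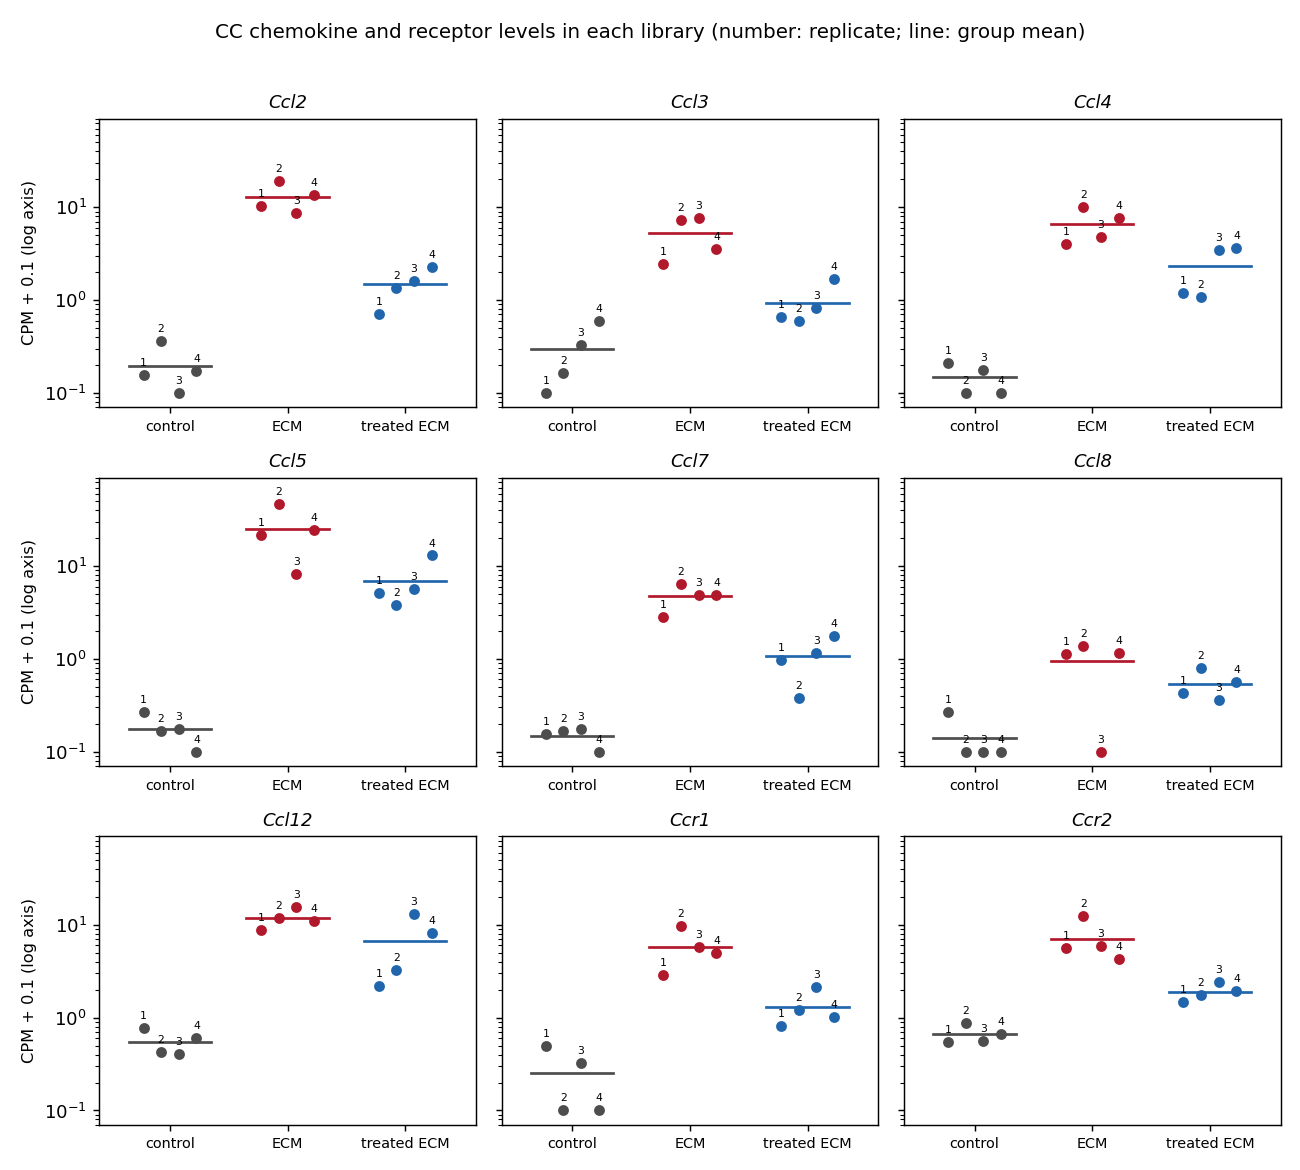
The level of each member (y axis, CPM + 0.1, log axis) is drawn for each library of the 3 groups, with the replicate number beside each point and a line at the group mean. The ECM points stand above all control points in every panel but that of Ccl8, where ECM 3 is at 0, and treated ECM 3 is the treated point of Ccl12 that lies among the ECM points.

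The members followed the library as well as the group. Their summed level was 1.45 to 2.06 CPM in the controls, 58.8 to 123 CPM in ECM and 12.6 to 33.2 CPM in treated ECM. ECM 2 was the highest ECM library for 7 of the 9 members and ECM 3 for the other two, Ccl3 and Ccl12. Among treated libraries, treated ECM 4 was highest for 5 and treated ECM 3 for 3, while treated ECM 1 and treated ECM 2 were each lowest for 4. ECM 2 and ECM 3 are also the ECM libraries with the high mitochondrial shares. ECM 3 was also the lowest ECM library for 3 members, Ccl2, Ccl5 and Ccl8, and its summed level, 60.7 CPM, lay close to the lowest, 58.8 CPM in ECM 1. Without control 4, ECM 2 and ECM 3, the numbers of members called in the 3 comparisons were 9, 5 and 6, and those of all genes called rose to 2773, 2273 and 469 from 1499, 1219 and 298. In that fit the log2 fold changes of Ccr1 and Ccl7 in ECM against control were 4.12 and 5.71, and that of Ccl3 in treated ECM against ECM was -1.79.

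Levels of different genes can be set side by side only per length, for which the authors' deposited FPKM (fragments scaled to gene length and library depth) were used. In ECM the order was Ccl5 at 43.8 ± 26.6 FPKM (SD, n = 4), Ccl12 at 19.9 ± 3.84, Ccl2 at 14.6 ± 5.15, Ccl4 at 9.15 ± 3.84, Ccl3 at 6.08 ± 2.83 and Ccl7 at 5.35 ± 1.61. Ccr1 (1.86 ± 0.897), Ccl8 (1.56 ± 1.05) and Ccr2 (0.944 ± 0.475) followed. Of neighbours in this order, only Ccl7 and Ccr1 had ranges that did not overlap. In treated ECM, Ccl5 (12.7 ± 7.81) and Ccl12 (12 ± 9.02) came first and Ccl4 (3.39 ± 2.11) stood before Ccl2 (1.70 ± 0.802), with the ranges of all neighbours overlapping. Both receptors were below the ligands other than Ccl8 in the ECM means.

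Unequal change of ligands was examined as the ratio of 2 members within a library, log2 of (CPM + 0.1), in which the pseudocount of 0.1 CPM weighs most on levels near 0. The 6 pairs were compared in 3 comparisons by exact two-sided permutation tests, in which 4 libraries against 4 cannot go below p = 0.0286, and 0 of 18 passed after adjustment. The Ccl12 to Ccl2 ratio was -0.24, -0.70, 0.83 and -0.30 in ECM 1 to 4 and 1.64, 1.26, 3.0 and 1.83 in treated ECM 1 to 4. All treated libraries lay above all ECM libraries, a 4.08-fold difference (log2 2.03, exact permutation p = 0.0286, adjusted p = 0.103).

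The Ccl5 to Ccl2 ratio also did not overlap between ECM (mean log2 0.78 ± 0.60 SD, n = 4) and treated ECM (2.16 ± 0.62, n = 4), a 2.6-fold difference with the same exact permutation p and adjusted p. So did the Ccl8 to Ccl2 ratio, which was 7.07-fold higher in treated ECM (log2 2.82), with ECM 3 at 0 counts of Ccl8. Without ECM 3 that difference was log2 2.08, and with a pseudocount of 1 CPM it was 2.21. The ratios of Ccl5, Ccl8 and Ccl12 to Ccl2 share the values of Ccl2, the member that fell most, so they are not independent. Ccl7 to Ccl2 (log2 0.87, exact permutation p = 0.143), Ccl4 to Ccl3 (0.83, p = 0.114) and Ccr2 to Ccr1 (0.34, p = 0.314) overlapped between these groups. Against control, Ccl8 to Ccl2 was lower in ECM (log2 -3.77) and Ccl5 to Ccl2 higher in treated ECM (log2 2.24), both without overlap and at the smallest p. As the control levels were near 0, these 2 ratios rest on few counts, and with a pseudocount of 1 CPM they were -2.84 and 1.64. Without ECM 3 the first was -3.03.

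**Figure D3:**
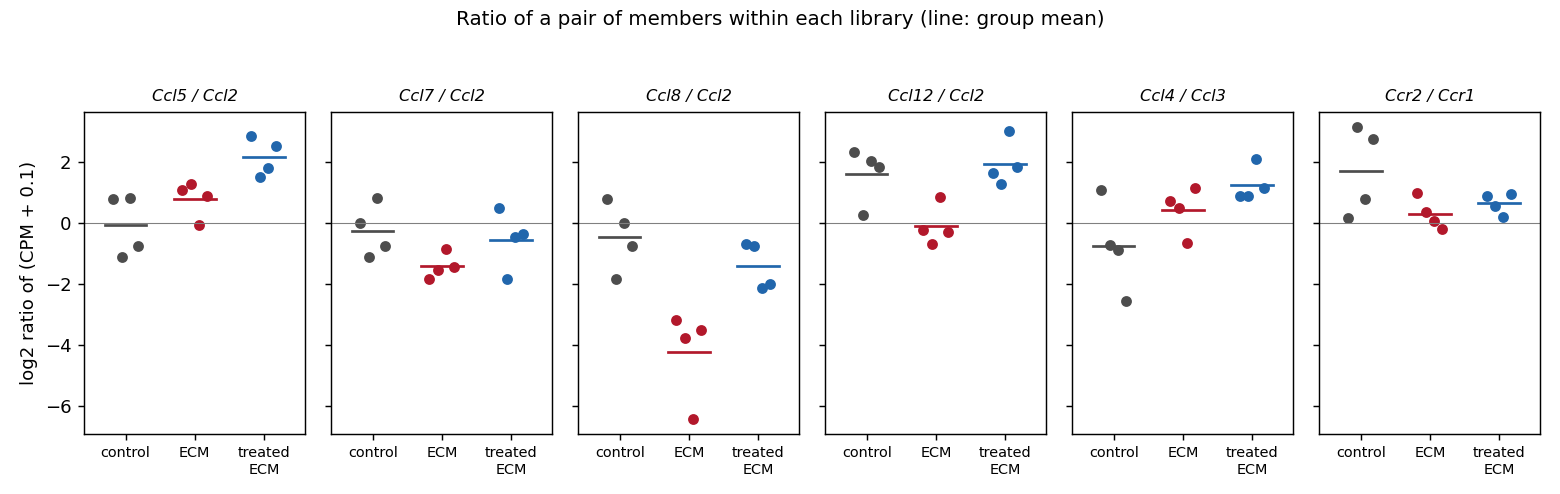
The log2 ratio of a pair of members (y axis, from CPM + 0.1) is drawn for each library in the 3 groups, with a line at the group mean. For Ccl5, Ccl8 and Ccl12 over Ccl2 the treated ECM points lie above the ECM points with no overlap, while the other 3 pairs overlap. The pairs over Ccl2 share its values and are not independent.

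To place the members among other genes, the tested genes outside the list whose centred log2 CPM profile over the 12 libraries differed least (root mean square difference) were listed for Ccl2, Ccl5 and Ccr2. For Ccl2 they were Fcgr4 (0.463), an activating Fc receptor of myeloid cells, Cytip (0.657), Gimap4 (0.692) and Lat (0.708), the adaptor of the T cell receptor. Those of Ccl5 were Nkg7 (0.496) and Gzma (0.584), genes of cytotoxic lymphocytes, and Plac8 (0.647) and Ly6c2 (0.679), genes of inflammatory monocytes. Ccr2 lay closest to Ifi208 (0.350), Ms4a6d (0.357), Pglyrp1 (0.381) and Xaf1 (0.384). The nearest member was Ccl7 for Ccl2 (0.839), Ccl4 for Ccl5 (0.846) and Ccl3 for Ccr2 (0.851). The listed genes were picked as the closest from a far larger pool than the members. Their smaller distances therefore do not show whether the members move together. For comparison of levels between groups, Nkg7 was at 0.0163 ± 0.0327, 10.1 ± 5.63 and 2.73 ± 1.63 CPM (SD, n = 4) in control, ECM and treated ECM.

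Of 30 other CC chemokines and CC receptors, 29 were in the table and 12 had enough counts to be tested. In ECM against control 5 rose and 0 fell (median log2 0.59 over the 12). Among ligands they included Ccl6 (log2 2.86, adjusted p = 0.000144) and Ccl9 (1.96, adjusted p = 0.00209), myeloid ligands of Ccr1, and Ccl17 (1.91, adjusted p = 0.0233), a ligand of Ccr4. Among receptors they included Ccrl2 (3.53, adjusted p = 4.69e-06), an atypical receptor that presents chemerin.

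In treated ECM against ECM, 4 of the 12 fell, Ccl6 (log2 -1.97), Ccl9 (-2.04), Ccl17 (-2.50) and Ccrl2 (-1.51), with 0 higher (median -0.59). Only Ccrl2 was called in treated ECM against control (log2 2.02, adjusted p = 0.00150), with a median of 0.06 over the 12. Ackr1, the decoy receptor of venular endothelium, was at 54.3 ± 13.4, 78.5 ± 53.2 and 60.7 ± 4.56 CPM (SD, n = 4) in control, ECM and treated ECM and was not called in any comparison.

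Genes that carry the signal of CC receptors were followed as a list of 27, 25 of them tested. In ECM against control 7 rose and 1 fell, beside 7.0% of all genes called higher and 3.27% lower. The 7 included Rac2 (log2 3.47, adjusted p = 6.40e-06) and Dock2 (1.72, adjusted p = 1.84e-04), which drive leukocyte migration, Rgs1 (3.87, adjusted p = 0.0155), a brake on G protein signalling, and the myeloid Src kinase Fgr (4.48, adjusted p = 1.35e-04). Grk5, a receptor kinase, fell by 1.01 on the log2 scale (adjusted p = 0.000702). In treated ECM against ECM, Rac2 (-1.62), Dock2 (-1.07) and Rgs1 (-3.01) fell and Grk5 rose (0.91). These are 3 and 1 of the 25, beside 5.05% of all genes called lower and 3.3% higher. In treated ECM against control 3 of the 25 were called higher, Rac2 and Fgr among them, beside 1.99% of all genes.

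Cytokines and transcription factors known to induce CC chemokines were a list of 16 with 14 tested, of which 9 rose and 0 fell in ECM. Irf7, a transcription factor of the interferon response, was at 2.67 ± 0.627 CPM in control, 65.4 ± 7.67 in ECM and 21.3 ± 4.75 in treated ECM (SD, n = 4). In treated ECM against ECM 2 of the 14 inducers fell, Irf7 among them (log2 -1.62, adjusted p = 0.000723), beside 5.05% of all genes called lower. Irf1, an interferon-gamma responsive factor, was at 4.12 ± 0.796, 32.9 ± 1.76 and 36.0 ± 7.30 CPM, and Il1b at 0.104 ± 0.0848, 1.62 ± 0.546 and 1.66 ± 0.456 CPM. Neither was called between treated ECM and ECM (adjusted p = 0.684 and 0.971), and both were called higher in treated ECM than in control. Tnf and Ifng had 0 counts in every control and averaged 1.5 and 2.83 CPM in ECM and 0.456 and 1.39 CPM in treated ECM.

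Among the marker lists, those of inflammatory monocytes and of T and NK cells moved with the members. Of 15 markers of inflammatory monocytes, 11 rose in ECM and 9 fell in treated ECM against ECM, and 10 were higher in treated ECM than in control. Their median log2 fold change was 6.09 in ECM against control and 4.17 in treated ECM against control. Their summed level was 86.2 to 146 CPM in control, 237 to 393 in ECM and 128 to 195 in treated ECM. Such a sum is weighted to the markers with the highest levels and does not show the change of a typical marker. Clec4e was at 0 in the controls. Of 14 tested markers of T and NK cells, 14 rose and 11 fell, with sums of 1.30 to 2.62, 115 to 237 and 27.1 to 60.5 CPM. Cd3g and Cd8b1 were at 0 in the controls.

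The falls of these 2 lists depended on single libraries. Between 2 and 12 of the monocyte markers fell in the fits that left out 1 library, with 4 or 5 called without ECM 2 or treated ECM 1, 2 or 3 and 2 without treated ECM 4. Between 5 and 13 of the T and NK markers fell, with 5 to 7 without ECM 2 or treated ECM 1, 2 or 3. The part of these cells in the chemokine levels was not tested.

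Other cell types gave the following values. Neutrophil markers summed to 0.262 to 0.501 CPM in control, 3.53 to 10.2 in ECM and 2.54 to 4.83 in treated ECM, with 3 of 3 tested called higher in ECM and Ly6g at 0 in every group. Markers of microglia, which reside in the brain, summed to 389 to 425, 290 to 412 and 325 to 461 CPM. Of these 10, 0 rose and 4 fell in ECM, a number that was 1 to 4 in the fits that left out 1 library. Of 9 astrocyte markers 2 rose in ECM, and of 9 endothelial markers 5 rose and 2 fell. Of 8 oligodendrocyte markers 1 rose and 2 fell, and 0 of 9 neuronal, 0 of 10 cerebellar and 0 of 1 tested B cell markers were called. The cerebellar markers summed to 1144 to 5130 CPM in control, 685 to 7798 in ECM and 1153 to 4571 in treated ECM, so that libraries within a group stood far apart, and the part of this in the chemokine levels was not tested. The neuronal markers, at 6729 to 11204 CPM in control, were those of the labelled tissue, brain.

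Red blood cell markers, which report blood left in the tissue, went the other way, and the labels do not say whether the animals were perfused. Their sum was 11.6 to 47.9 CPM in control, 0 to 0.786 in ECM and 14.3 to 87.0 in treated ECM, with 3 of 4 tested called lower in ECM and 3 called higher in treated ECM against ECM. Of the 6, 2 were at 0 in every ECM library, Hbb-bt among them. The part of left-over blood in the chemokine levels was not tested.

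The genes around each cluster were read from the annotation, within 500 kb. Around Ccl2, Ccl7, Ccl12 and Ccl8 there were 6 other genes in the table, 2 of them tested, Asic2 and Tmem132e, and neither was called. Around Ccl5, Ccl3 and Ccl4, 20 others were tested and 4 rose in ECM, Ccl6 and Ccl9 from within the cluster, Wfdc17 just beyond it (log2 4.49, adjusted p = 0.000355) and Slfn4. These 4 fell in treated ECM against ECM. Taf15, the nearest tested gene on the other side, was not called (log2 -0.20, adjusted p = 0.650). Around Ccr1 and Ccr2, 2 of 8 rose in ECM, among them Cxcr6, a chemokine receptor of effector T cells (log2 4.18, adjusted p = 0.000775), and Cxcr6 fell in treated ECM against ECM (log2 -2.57, adjusted p = 0.0138). Fyco1, whose end lies closer to Ccr1 than that of Cxcr6, was not called in ECM against control (log2 -0.28, adjusted p = 0.573). Slfn4 was named after its values were seen.

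**Figure D4:**
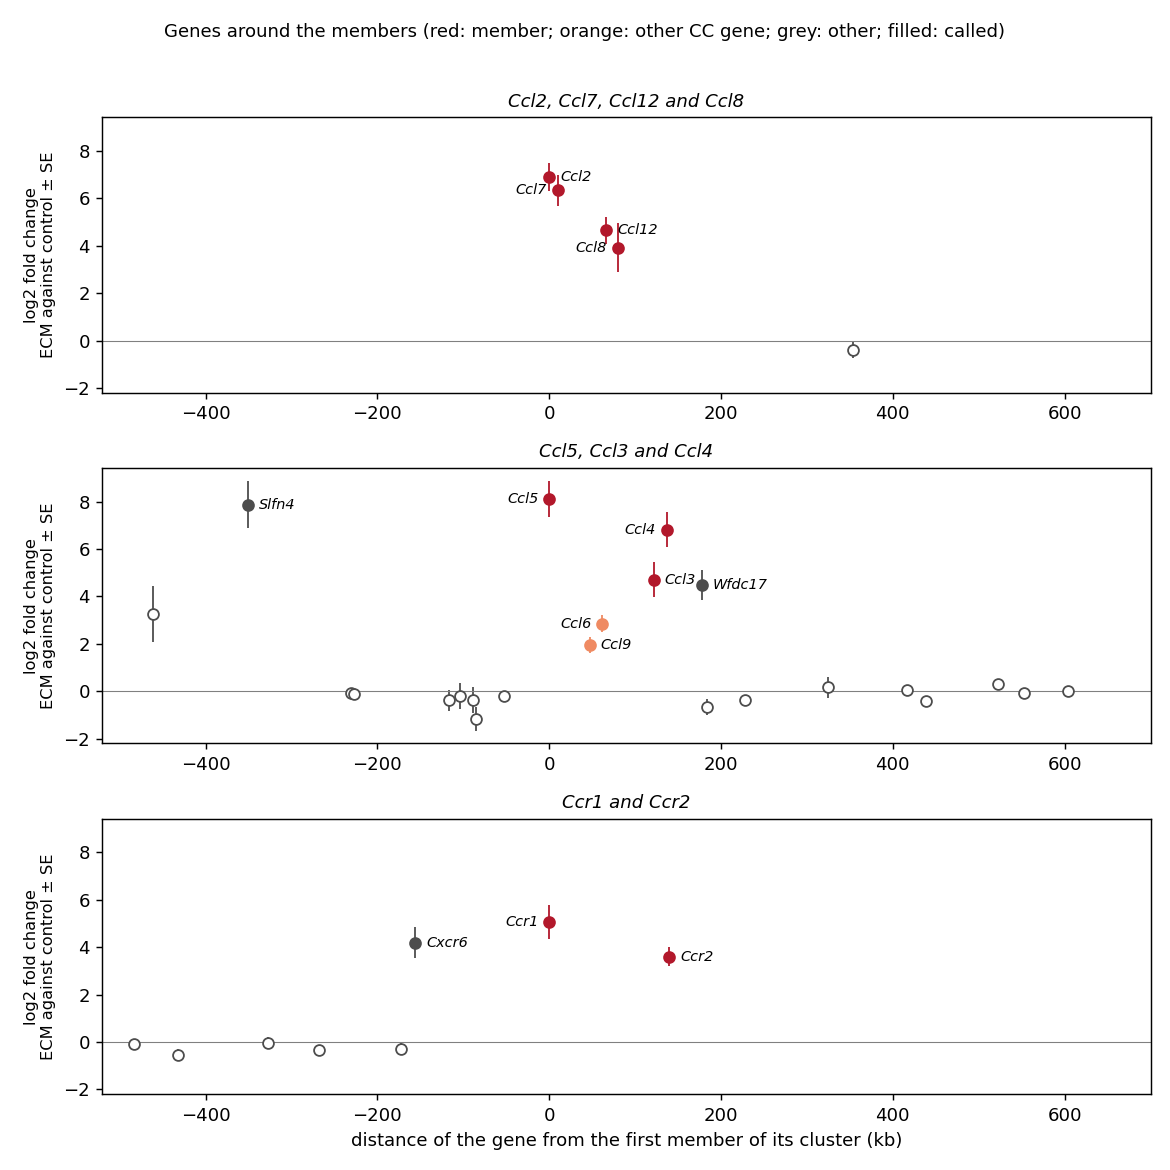
The log2 fold change of ECM against control (y axis, ± SE) is drawn for members (red), other CC genes (orange) and other tested genes (grey) by the distance of their start from the first member of their cluster (x axis, kb), with filled points called at an adjusted p below 0.05. Members stand between 3.60 and 8.11 while most other genes lie near 0, and not every tested gene is drawn (Asic2, for example, starts beyond the axis).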

How the data were processed

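Total RNA from brains stored in RNAlater was taken up with Trizol and made into NEBNext Ultra libraries, per the labels' protocols. The submitters' processing notes name Trimmomatic, FastQC, STAR, HTSeq and build mm10. Their versions and the gene models are not stated there. The authors deposited whole read counts for 21983 genes in 12 libraries, and tables of 3 comparisons with log2 fold changes, p-values, read counts and FPKM, per the file headers. How the authors obtained those log2 fold changes, p-values and FPKM is not stated either.

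In 2212 genes with names of 8 or more characters, values displaced by the name were put back. For these, treated ECM 4 differed from the deposited tables in 109 of 118 entries and the other libraries in 0, so they were fitted with 11 libraries. For shorter names, the members included, 0 of 3259 entries differed. A further 32 genes had spoiled names (26 dates) and were left out. GENCODE M21 symbols matched 21871 genes.

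Library sizes were summed over genes with short names. Counts were scaled by TMM, and genes passing filterByExpr entered an edgeR quasi-likelihood fit (edgeR 4.0.16, R 4.3.3) with a mean for each group and Benjamini-Hochberg adjustment over 14599 genes. The ± SE of a log2 fold change was its absolute value divided by the square root of the F statistic of the edgeR test. It is not an error estimated by the fit, and can understate the counting error at few counts. The script was tested on simulated data. Pair ratios used a pseudocount of 0.1 CPM and exact permutation tests (scipy 1.17.1), adjusted over 18 tests. Counting intervals are exact at 95%, on counts summed over the libraries of a group, and leave out the spread between libraries. Alternatives were DESeq2 1.42.0, RLE scaling, no filter on low counts, a replicate block, only the groups compared, a pseudocount of 1 CPM, and leaving out each library. Leaving out control 4, ECM 2 and ECM 3 together was chosen after seeing the data.

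The members and lists were chosen with earlier results of these data known. Genes named are the members, up to 6 of each list with called genes first, the 4 nearest profiles of Ccl2, Ccl5 and Ccr2, and the tested genes next to the clusters. No library was a copy of another. Antisense reads were not separated. Some genes of the lists are not reported here.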

Additional observations from a re-analysis of the deposited data

Results flagged for a closer look

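In a group of 4 libraries, a library was marked when the gap to its nearest neighbour took up more of the whole range of the group than chance gives in about 1 of 20 groups. Of 27 groups tested (9 members in 3 groups), 1 was marked, so that chance alone would give about as many. Ccl8 in control 1 was at 0.167 CPM while the other controls were at 0, a gap of 1 in units of the range. This rests on 3 counts.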

How the results depend on the processing

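Directions of the member fold changes held in all alternatives run. Of the fold changes under an alternative, 442 stayed on the same side of the threshold, 36 lost a call and 3 gained one. With only the 2 groups compared in the fit, 8, 5 and 4 members were called, and some members were not tested because they did not pass the filter on low counts, Ccl8 in ECM against control and Ccl2, Ccl3, Ccl7 and Ccl8 in treated ECM against control. The number of members called ranged from 8 to 9 in ECM against control, 3 to 7 in treated ECM against ECM and 5 to 6 in treated ECM against control when 1 library was left out. Over all genes, 1064 to 1697 (1499 with all libraries), 550 to 2101 (1219) and 226 to 321 (298) were called in these fits. The fit of only 2 groups called 867 genes over the whole table in ECM against control. DESeq2 called 2149 in treated ECM against ECM and 455 in treated ECM against control. Without control 4, ECM 2 and ECM 3, the counts were 2773, 2273 and 469 in the 3 comparisons, and 2 other CC genes in place of 1 were called in treated ECM against control. The other CC genes called numbered 4 to 6, 4 and 1 with 1 library left out. The sign turned, with 1 library left out, for the Ccl7 to Ccl2 ratio of treated ECM against control (log2 -0.63 to 0.14, 0.08 without control 3) and the Ccl12 to Ccl2 ratio (-0.11 to 0.57, -0.02 without treated ECM 3), 2 differences that had not passed. The causes of these changes were not tested. Between 3 and 11 counts over the 4 controls limit the folds against control of all members but Ccl12 and Ccr2. A replicate block by library number gave 539 calls over all genes in treated ECM against ECM, and 9, 4 and 5 members in the 3 comparisons. It took the calls of Ccl5 and Ccr1 in treated ECM against ECM (adjusted p = 0.0890 and 0.0785) and of Ccr2 in treated ECM against control (adjusted p = 0.0532). Deviations of libraries with the same number correlated between -0.60 and 0.30, above 0.1 in 3 of 12 pairs. For libraries with different numbers this held in 12 of 36 pairs. With 4 libraries per group these correlations cannot exclude a pairing by number, which the labels do not state.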
